A study of Mus musculus with 19 samples.

Results

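*Ano3*, *Dglucy*, *Inka2*, *Map3k20* and *Ephx1* are 5 genes of the embryonic mouse cortex whose RNA was more abundant after loss of the chromatin remodeler *Ino80*, and was lower again when *Trp53*, the gene for p53, was lost as well. They are 5 of the 51912 genes counted in each of 19 libraries. They were chosen on these same values, as genes strongly raised in the *Ino80* mutant, not raised in the double mutant, and outside the well-known arrest and death targets of p53; that choice had no stated cut-off. Their levels and fold changes across genotypes are therefore a description and carry no p value. Tests are given only for other genes, and for sex and sequencing batch, which the choice did not use.

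Each library was made from the cerebral cortex of 1 embryo at embryonic day 13.5 (E13.5), on a mixed C57BL/6 and 129 background. The 7 embryos labelled control (ctrl) were compared with 5 *Ino80* conditional mutants (cKO-E) and 7 *Ino80*/*Trp53* conditional double mutants (dKO-E). Both mutants carried *Emx1*-Cre, which recombines in cortical neural progenitor cells and so also in the neurons and astrocytes born from them, while microglia, vessels and neurons that migrate in from the ventral forebrain keep their alleles. Both were homozygous for floxed *Ino80*, and the labels do not say which of these alleles the ctrl embryos carried. The tissue was bulk cortex, in which a change in the number of cells of a type and a change in RNA per cell cannot be told apart. The dKO-E embryos came from 2 litters and the cKO-E embryos from 5, and no litter held both, so litter and genotype cannot be told apart between the mutants.

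p53 is a transcription factor that is kept scarce in healthy cells and accumulates after DNA damage and other stress. It binds DNA as a tetramer at paired half-sites and turns on genes for cell-cycle arrest, DNA repair, feedback and apoptosis; in neural progenitors, the apoptotic arm is well known for thinning the developing cortex. Beyond that core, p53 raises many genes of less familiar function. *Ano3* encodes an anoctamin, a membrane protein of the TMEM16 family, and is mutated in a human dystonia. *Dglucy* encodes the mitochondrial D-glutamate cyclase. *Inka2* encodes an inhibitor of the kinase PAK4, *Map3k20* encodes ZAK, a kinase that senses stalled ribosomes and signals to p38 and JNK, and *Ephx1* encodes microsomal epoxide hydrolase, a detoxifying enzyme.

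The DNA just before the start of each gene was searched for paired p53 half-sites. The search was prompted by how the 5 genes were chosen: the double mutant lacked their rise seen after loss of *Ino80* alone. RefSeq gave 8 starts for the 5 genes on GRCm38.p6, and the 250 bases before each were read. The p53 half-site is 10 bases long: 3 purines, a C, 2 bases that are A or T, a G and 3 pyrimidines; it reads the same on both strands. A pair was taken as 2 half-sites, each with its C and G in place, with at most 13 bases between them. Of the 8 windows, 1 held a half-site with every base of the consensus, and it was the window before the downstream start of *Inka2*. Among all 32851 promoters, 7.13% held such a half-site in the same 250 bases. The *Inka2* window, on the plus strand at chr3:105705208-105705457, lies within the gene and in no GENCODE exon, and is shown whole with its closest pair of half-sites in capitals.

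*Inka2*, before the downstream start: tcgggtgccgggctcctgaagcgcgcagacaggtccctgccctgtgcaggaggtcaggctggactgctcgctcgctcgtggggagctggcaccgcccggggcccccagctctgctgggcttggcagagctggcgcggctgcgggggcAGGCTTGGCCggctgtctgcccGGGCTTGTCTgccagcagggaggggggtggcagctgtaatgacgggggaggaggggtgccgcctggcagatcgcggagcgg

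The pair in this window lies at chr3:105705355-105705386, has 12 bases between its half-sites, and departs from the consensus at 1 position in all. A pair that close was present before 0.505% of all starts. That share is for a single start, whereas this pair was the closest of 8 windows searched. The window is also rich in G and C, at 73.6% of its bases, and the share was not matched for this. For comparison, the closest pair before any start of each other gene is given with its half-sites in capitals, on the strand of the gene.

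*Map3k20*, chr2:72285664-72285685: GGGCGTGCCCggAGGCTGGCCG

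*Dglucy*, chr12:100778892-100778923: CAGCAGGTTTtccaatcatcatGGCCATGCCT

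*Ephx1*, chr1:181017709-181017730: AGGCCAGCTTggGCTCTTGTGT

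*Ano3*, chr2:110950439-110950461: ATGCTTGGATttaTGCCTTGTCC

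The *Map3k20* and *Dglucy* pairs each departed from the consensus at 3 positions, and 13% of all starts had a pair at least that close. The *Ephx1* pair departed at 4 positions and the *Ano3* pair at 5, which 34.6% and 61.6% of all starts matched or bettered. *Ano3*, whose RNA differed most between genotypes, thus had the least close pair in this window. All 250 bases of that *Ano3* window lie in GENCODE exons of the gene, and so do 64 bases of the *Map3k20* window, its pair among them. These 2 pairs are therefore within the annotated gene. Before the other *Ano3* start, whose window is in no exon, the closest pair departed at 7 positions. A match is a string of letters and not a measured binding site, and sites farther away were not searched.

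Counts on genes ranged from 820915 (cKO-E D) to 8095810 (dKO-E C) per library, with a median of 2952788. Values are given as CPM, the usual scaling of counts to library size, here after TMM normalization, and 3 counts correspond to between 0.369 and 3.71 CPM depending on depth. Counts are sums over whole genes, so the loss of floxed exons is not visible in them: *Ino80* stood at 121 ± 8.63 CPM (SD, n = 7) in ctrl, 166 ± 14.6 (n = 5) in cKO-E and 186 ± 13.6 (n = 7) in dKO-E, and *Trp53* at 43.7 ± 5.20, 39.2 ± 4.66 and 34.6 ± 4.92. The 9 neocortex markers summed to 899 to 1067 CPM in ctrl, 767 to 945 in cKO-E and 736 to 966 in dKO-E, with *Sox2* at 0 counts in all libraries and the other 8 detected. The paper stained SOX2 protein in progenitors of the embryonic cortex, so these 0 counts are not read as absence of *Sox2* RNA. Their cause was not tested. Of the 8 tested in cKO-E against ctrl, none was called, 5 were lower and none higher at unadjusted p under 0.05, and the median log2 fold change was -0.33. The part of this shift in the levels of the 5 genes was not tested.

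*Ano3* (ENSMUSG00000074968.11; chromosome 2, 110655201 to 110950923, GRCm38) showed the widest range of the 5 genes. In the cKO-E embryos A to E it stood at 83.8, 74.9, 82.0, 69.2 and 91.8 CPM. In ctrl its lowest value was 2.03, its median 4.26 and its highest 7.85 CPM. The cKO-E embryos lay in a narrow band, with a coefficient of variation of 10.8%, far above every ctrl embryo. The fitted log2 fold change between cKO-E and ctrl was 4.39 (SE 0.17). In dKO-E the lowest value was 0.00, the median 1.01 and the highest 1.86 CPM. Every dKO-E embryo was thus below every ctrl embryo as well as below every cKO-E embryo. These dKO-E values rest on 25 counts over 7 libraries, against 79 counts in ctrl and 1073 in cKO-E. Scaled for depth, the summed *Ano3* counts were 3.71 times lower in dKO-E than in ctrl, with a 95% interval of 2.34 to 6.07 that covers counting error only. Against cKO-E the fitted log2 fold change of dKO-E was -6.27 (SE 0.20).

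*Dglucy* (ENSMUSG00000021185.16; chromosome 12, 100779057 to 100896981) was also low in ctrl, with a lowest value of 0.556, a median of 3.88 and a highest of 5.03 CPM. In cKO-E embryos A to E it was 30.0, 24.8, 21.5, 23.5 and 31.4 CPM. Its log2 fold change was 2.99 (SE 0.24), and the groups did not overlap. Unlike *Ano3*, *Dglucy* did not sit below the ctrl range in dKO-E, where its lowest value was 1.84, its median 2.23 and its highest 7.57 CPM. The dKO-E and ctrl embryos overlapped, and the ratio of their summed counts was 0.751, with a 95% counting interval of 0.522 to 1.08. Against cKO-E, the log2 fold change of dKO-E was -3.39 (SE 0.22).

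*Inka2* (ENSMUSG00000048458.8; chromosome 3, 105704599 to 105720842) started from a higher level. Its lowest, median and highest ctrl values were 5.00, 6.68 and 11 CPM. In cKO-E embryos A to E it reached 29.0, 28.7, 29.5, 18.5 and 30.4 CPM. Embryo D, the shallowest library, stood below the other 4 and rests on 15 counts. *Inka2* had a log2 fold change of 1.94 (SE 0.16), with every cKO-E embryo above every ctrl embryo. In dKO-E the lowest, median and highest values were 1.67, 3.36 and 6.66 CPM. As with *Ano3*, most dKO-E embryos fell under the ctrl range: only B, at 6.66 CPM, reached it. The log2 fold change of dKO-E was -0.77 (SE 0.23) against ctrl and -2.68 (SE 0.19) against cKO-E.

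*Map3k20* (ENSMUSG00000004085.14; chromosome 2, 72285637 to 72442610) was the most abundant of the 5 in ctrl and changed least in proportion. Its lowest, median and highest ctrl values were 28.9, 31.2 and 54.3 CPM. In cKO-E embryos A to E it was 72.2, 82.6, 69.6, 66.7 and 76.6 CPM. The next ctrl embryo below F was at 34.7 CPM, and F was still under the lowest cKO-E embryo. This gave a log2 fold change of 1.14 (SE 0.12). In dKO-E the lowest, median and highest values were 21.6, 25.9 and 37.9 CPM. Again B alone was within the ctrl range, and the other 6 lay under it. The log2 fold change of dKO-E was -0.27 (SE 0.14) against ctrl, and -1.40 (SE 0.11) against cKO-E.

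*Ephx1* (ENSMUSG00000038776.13; chromosome 1, 180976210 to 181020904) was close to the detection limit outside cKO-E. No ctrl library held more than 3 of its counts and no dKO-E library more than 4. In cKO-E embryos A to E it was 8.25, 8.45, 5.83, 2.47 and 7.42 CPM, from 2 to 30 counts. The lowest, median and highest values were 0.00, 0.457 and 0.852 CPM in ctrl, and 0.00, 0.672 and 1.67 CPM in dKO-E. Every cKO-E embryo was above every other embryo in CPM. The value of cKO-E D rests on 2 counts, as many as in dKO-E E at 1.67 CPM, so only depth scaling parts them. It is under 3.71 CPM, which 3 counts make in that library. The gene failed the filter on low counts in all comparisons, so no fit is given. Its summed counts, 95 in cKO-E against 10 in ctrl, gave a depth-scaled ratio of 15.1, with a 95% counting interval of 7.88 to 32.6. The ratio of cKO-E to dKO-E, which held 16 counts, was 11.1 (6.50 to 20.2). Between dKO-E and ctrl the ratio was 1.36, and its interval of 0.581 to 3.36 leaves the direction undetermined at this depth.

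**Figure D1:**
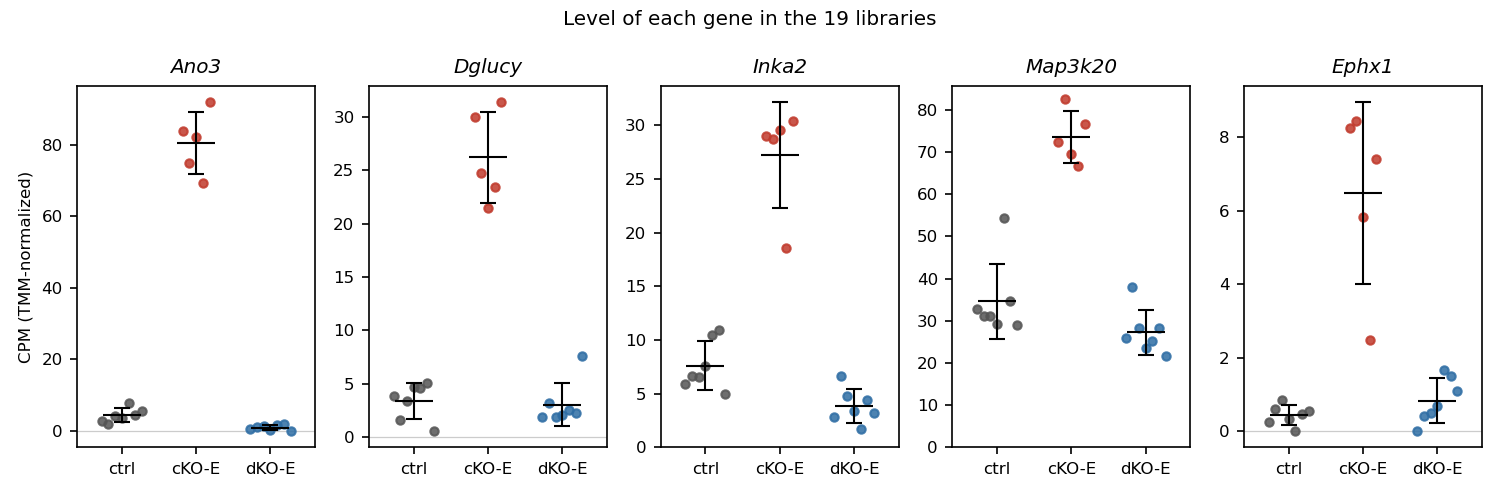
Level of each of the 5 genes in CPM after TMM normalization (vertical axis, own scale per panel) in the 7 ctrl, 5 cKO-E and 7 dKO-E embryos; points are embryos, and the black line and bars are the mean and SD. In all panels the cKO-E points lie above all other points, and in the *Inka2* panel 1 cKO-E embryo, D, stands at 18.5 CPM below the other 4. In the *Ephx1* panel the lowest cKO-E point, D, rests on 2 counts.

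The 5 genes thus shared complete separation of cKO-E from the other 2 groups, which was part of how they were chosen. For *Ephx1* this holds only after scaling for depth, since cKO-E D had 2 counts. The share of all genes separated in this way, or wholly below the ctrl range in dKO-E, was not counted. Among all genes, 1.06% of the 11660 tested were called higher in cKO-E than in ctrl at a false discovery rate (FDR) of 0.001, and 9.42% of the 11746 tested were called lower in dKO-E when the mutants were compared at 0.05; nothing is read from the 5 genes against these shares. By the size of the cKO-E fold change, *Ano3* ranked 2nd of 11660 genes, *Dglucy* 8th, *Inka2* 21st and *Map3k20* 102nd. The same order held for the drop from cKO-E to dKO-E, where they ranked 2nd, 9th, 14th and 85th of 11746. They differed in the dKO-E level relative to ctrl: *Ano3* was below the ctrl range in all 7 embryos, *Inka2* and *Map3k20* lay partly under the ctrl range, and *Dglucy* and *Ephx1* overlapped it.

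Levels of different genes are compared per kilobase of exon. In ctrl, *Map3k20* was highest at 3.4 ± 0.876 CPM per kb, followed by *Inka2* at 1.59, *Dglucy* at 0.737, *Ano3* at 0.609 and *Ephx1* at 0.224. In cKO-E the order was different: *Ano3* was highest at 11.1 ± 1.20 CPM per kb (SD, n = 5), followed by *Map3k20* at 7.23, *Dglucy* and *Inka2* both at 5.70, and *Ephx1* at 3.33. *Dglucy* and *Ano3* in ctrl, and *Dglucy* and *Inka2* in cKO-E, were neighbours that differed by less than their SDs. In dKO-E *Map3k20* was again highest at 2.68 ± 0.520 (n = 7), followed by *Inka2* at 0.807 ± 0.336, *Dglucy* at 0.661 ± 0.446, *Ephx1* at 0.425 ± 0.312 and *Ano3* at 0.130 ± 0.101, and no neighbours below *Map3k20* in this order differed by more than the larger of their SDs. Among 12018 genes that passed the filter over all libraries, *Ano3* moved from the 2.48 percentile of level per kb in ctrl to the 66.1 percentile in cKO-E, and stood at the 0.05 percentile in dKO-E. *Map3k20* moved from 27.5 to 51.4 and stood at 21.6 in dKO-E.

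**Figure D2:**
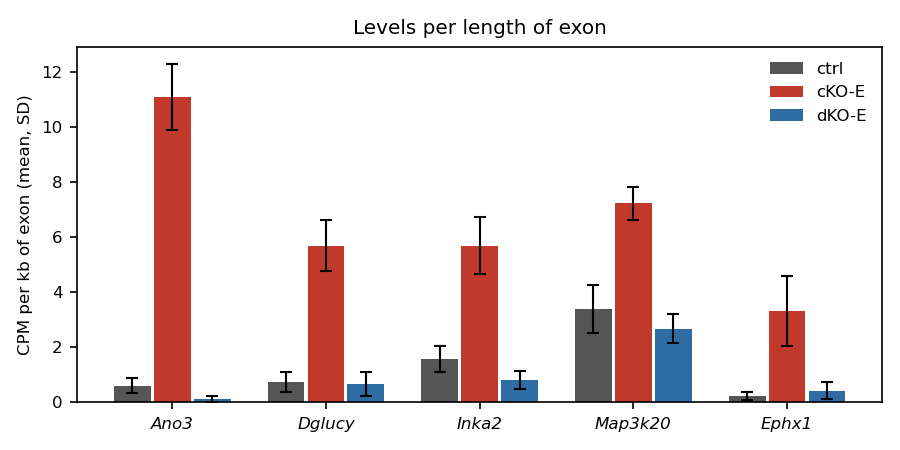
Mean level of each gene in CPM per kb of exon (vertical axis, from 0), with SD bars, in ctrl (n = 7), cKO-E (n = 5) and dKO-E (n = 7). *Ano3* is second to last in ctrl at 0.609 and first in cKO-E at 11.1.

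Within litters, the same contrast could be read with the parents shared. In litter 4, with 1 cKO-E and 1 ctrl embryo, *Ano3* was 17.6 times, *Dglucy* 7.28 times, *Inka2* 4.40 times and *Map3k20* 2.64 times as high in cKO-E. In litter 5, with 1 cKO-E and 2 ctrl embryos, these ratios were 14.3, 4.66, 3.26 and 1.67. In litter 7, of the same make-up, they were 18.1, 11.2, 3.80 and 2.41. *Ephx1* had from 1 to 3 ctrl counts in these litters against 16 to 30 in the cKO-E littermate. In these 3 litters the cKO-E embryo was above each ctrl littermate for all 5 genes. This order follows from the complete separation of cKO-E from ctrl, which was part of how the genes were chosen, so it is no further support. Litter 1 held 3 dKO-E and 2 ctrl embryos, and there the dKO-E mean of *Ano3* was 0.944 CPM against 2.43 CPM, with all 3 dKO-E embryos below both ctrl littermates. Mean *Map3k20* in that litter was 30.7 CPM in dKO-E and 32.0 CPM in ctrl, and mean *Inka2* 4.76 and 6.31 CPM. The dKO-E and ctrl embryos of litter 1 overlapped for both genes. For *Map3k20*, dKO-E embryos ran from 25.9 to 37.9 CPM beside 31.2 and 32.8 in ctrl. Litter 2, with the remaining dKO-E embryos, held no ctrl embryo.

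**Figure D3:**
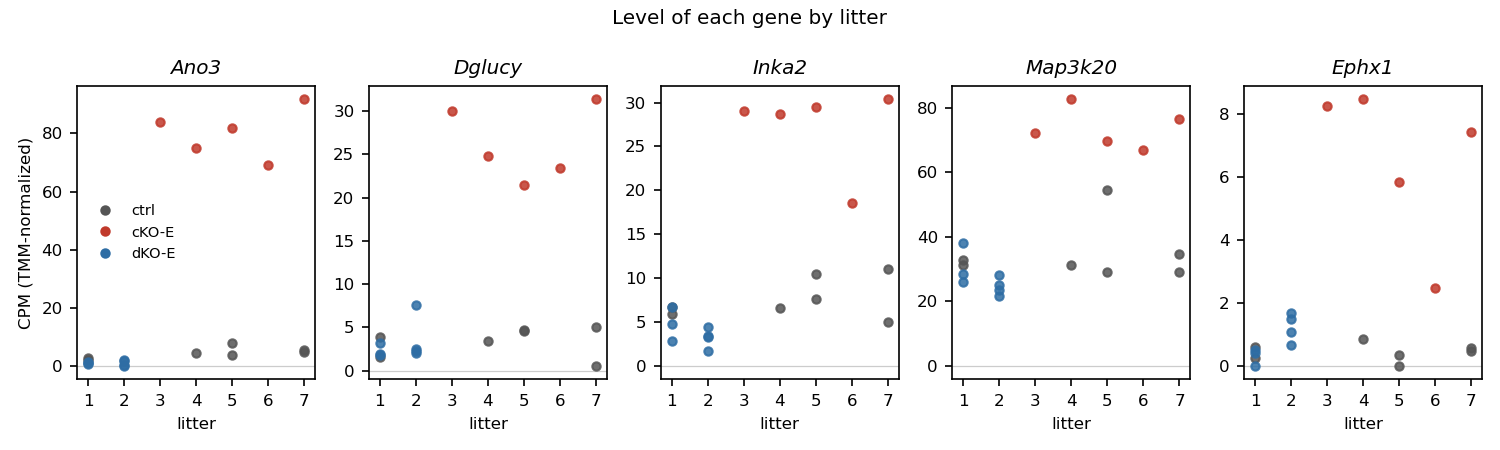
Level of each gene in CPM (vertical axis, own scale per panel) by litter (horizontal axis), with ctrl, cKO-E and dKO-E embryos in grey, red and blue. Litters 4, 5 and 7 hold cKO-E embryos beside ctrl littermates and litter 1 holds dKO-E beside ctrl; in litters 4, 5 and 7 each cKO-E point lies above its littermates.

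Sequencing batch 1 held 4 ctrl, 3 cKO-E and 4 dKO-E embryos, batch 2 held 3, 2 and 2, and batch 3 held 1 dKO-E embryo. The log2 fold change of *Ano3* between cKO-E and ctrl was 4.68 in batch 1 alone and 3.83 in batch 2 alone. Those of *Dglucy* were 2.96 and 3.04, those of *Inka2* 2.11 and 1.58, and those of *Map3k20* 1.26 and 0.93. From cKO-E to dKO-E, *Ano3* had log2 fold changes of -6.42 and -5.87, *Dglucy* of -3.48 and -2.95, *Inka2* of -2.63 and -2.68, and *Map3k20* of -1.36 and -1.49. The small differences between dKO-E and ctrl were less even: for *Map3k20* the log2 fold change was -0.11 in batch 1 and -0.57 in batch 2, and for *Inka2* -0.53 and -1.10. Batch 2 alone was added after the data were seen.

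Sex and sequencing batch were tested in 1 fit over all 19 libraries with genotype as a term and a term of its own for the 1 library of batch 3, since dKO-E held 5 males of 7 and cKO-E 1 of 5. None of the 4 genes tested was called for sex at FDR 0.05 by edgeR's quasi-likelihood test, against 0.938% of all 12048 genes. *Map3k20* had the lowest p by edgeR: the log2 difference, male minus female, was -0.26 (SE 0.10, adjusted p = 0.234), and its unadjusted p was under 0.05, as it was for 14.1% of all genes; by the likelihood-ratio test 2 of the 4 genes were under 0.05, and 14.4% of all genes. For *Ano3* the difference was 0.01, with a 95% interval of -0.36 to 0.38, for *Inka2* -0.15 (-0.49 to 0.19) and for *Dglucy* -0.43 (-0.90 to 0.05). edgeR's likelihood-ratio test and DESeq2 also called none of them. For batch 2 against batch 1, 0.00% of all genes and none of the 4 were called, with 16.3% of all genes and none of the 4 at an unadjusted p under 0.05. The likelihood-ratio test called 322 genes and DESeq2 183 for batch, none of them among the 4. Batch differences were 0.24 for *Ano3* (-0.11 to 0.59), 0.17 for *Dglucy* (-0.29 to 0.63), 0.03 for *Inka2* (-0.32 to 0.37) and 0.05 for *Map3k20* (-0.15 to 0.25) on the log2 scale.

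For scale, the same comparisons were made for a list of 40 known p53 targets, from which the 5 genes were left out by choice. The paper itself counts *Ano3* among p53 targets and measured its rise in cKO-E by droplet digital RT-PCR. Of the 35 tested in cKO-E against ctrl, 14 were called higher and 1, the arrest gene *Rprm*, lower, which is 40.0% and 2.86%, against 1.06% and 2.32% of all genes; their median log2 fold change was 0.54, against 0.02 over all genes. The *Rprm* call was lost with litter as a block, with sex as a covariate, with total counts and in batch 1 alone. The list was written with the study's results known, so its direction is not independent evidence. *Eda2r*, a receptor of the TNF family, rose by 3.89 on the log2 scale (SE 0.22, edgeR adjusted p = 7.94e-09), and *Cdkn1a*, which encodes the arrest protein p21, rose by 3.63 (SE 0.36, adjusted p = 4.33e-06). *Ano3* was exceeded by 1 of the 35, the apoptosis gene *Pmaip1*, which had 2 counts in all ctrl libraries together. *Dglucy* was exceeded by 4, *Inka2* by 8 and *Map3k20* by 11. *Mdm2*, the feedback ubiquitin ligase of p53, stood at 0.15 (SE 0.07, adjusted p = 0.149) and was not called, and nor were *Sesn1* at -0.14 and *Btg2* at -0.17. *Map3k20*, the least changed of the 5, thus lay beside *Aen*, a p53-induced nuclease, at 1.21 (SE 0.07).

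In dKO-E against ctrl, none of the 27 listed p53 targets tested was called higher or lower by the quasi-likelihood test, against 0.246% and 2.34% of all 11381 genes. At an unadjusted p under 0.05, 3 were higher and 6 lower, and both the likelihood-ratio test and DESeq2 called 1, *Rprm*, lower. *Inka2* at -0.77 lay below all 27, and *Map3k20* at -0.27 below 23 of them. The 27 leave out targets too low to be tested here. Among them, *Eda2r* stood at 1.95 ± 0.717 CPM (SD, n = 7) in ctrl and 0.376 ± 0.304 (n = 7) in dKO-E with no overlap. *Phlda3* stood at 0.959 ± 0.554 and 0.490 ± 0.395 with overlap. The means of *Cdkn1a*, *Sesn2* and *Trp53cor1* were also lower in dKO-E. Those of *Bbc3*, at 1.85 ± 0.789 and 2.29 ± 0.956, and *Tnfrsf10b*, at 1.90 ± 0.316 and 2.63 ± 2.04, were higher, with overlap. *Pmaip1* was at 0.0942 and 0.0882. Between the mutants, 19 of 35 listed targets (54.3%) were called lower in dKO-E and none higher, against 9.42% and 5.59% of all genes. The drop of *Ano3* exceeded that of all 35, the nearest being *Eda2r* at -5.93 (SE 0.26, edgeR adjusted p = 1.56e-11).

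The genes most like each of the 5 over the 19 libraries were found by the correlation of log2 CPM; these libraries fall into the 3 genotype groups, so the coefficients describe a shared pattern across groups. *Ano3* was most like *Eda2r* (Pearson r = 0.981), then *Map3k20* (0.947) and *Ncam2* (0.943), a neural adhesion gene. *Inka2* was most like *Map3k20* (0.949), *Aen* (0.948) and *Ano3* (0.931). *Map3k20* was most like *Phlda3* (0.953), a p53-induced inhibitor of Akt signalling, then *Inka2* and *Ano3*. *Dglucy* was most like the neuronal contactin *Cntn5* (0.914), *Aen* (0.901) and *Galntl6* (0.897), and *Ephx1* like the apoptosis genes *Bbc3* (0.904) and *Pmaip1* (0.887) and like *Galntl6* (0.881). Among the 5 genes themselves, r ran from 0.723 for *Inka2* with *Ephx1* to 0.949 for *Inka2* with *Map3k20*. *Cntn5*, *Galntl6* and *Ncam2* stood at 297, 60.4 and 378 CPM in ctrl, and rose in cKO-E by 0.98 (SE 0.06), 1.60 (SE 0.12) and 0.58 (SE 0.08) on the log2 scale. From cKO-E to dKO-E their log2 fold changes were -1.05 (SE 0.07), -1.61 (SE 0.09) and -0.77 (SE 0.07). They were picked in these libraries for likeness to genes chosen by this same pattern. Their rise and fall is therefore a description and carries no p value.

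The relatives and pathway partners of the 5 genes were followed in 6 lists of 77 genes. In cKO-E against ctrl, of 51 tested, none was called higher and 2 lower, and in dKO-E against ctrl, of 49 tested, none was higher and 2 lower. Between the mutants, of 53 tested, 1 was called higher and 9 lower in dKO-E. The shares of all genes called were 1.06% higher and 2.32% lower in the first comparison, 0.246% and 2.34% in the second, and 5.59% and 9.42% between the mutants.

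Of the 9 other anoctamins, 5 were tested, with a median log2 fold change of 0.20 in cKO-E. *Ano1*, a calcium-activated chloride channel, had a lowest, median and highest value of 1.99, 6.67 and 16.9 CPM in ctrl, 16.4, 21.4 and 33.8 in cKO-E, and 4.42, 5.86 and 14.0 in dKO-E. Its cKO-E embryos overlapped the ctrl group by a small margin and were above all dKO-E embryos. The log2 fold change of *Ano1* in cKO-E was 1.66 (SE 0.31, edgeR adjusted p = 0.00157) and missed the threshold, while the likelihood-ratio test and DESeq2 called it. From cKO-E to dKO-E, *Ano1* fell by -1.97 on the log2 scale (SE 0.22, edgeR adjusted p = 7.05e-06) and *Ano4* by -1.0 (SE 0.17, adjusted p = 0.000462). *Ano6*, a lipid scramblase, and *Ano10* were the most abundant per kb in ctrl, at 12.1 and 12 CPM per kb, and had log2 fold changes of -0.09 each in cKO-E. *Ano3*, at 0.609 CPM per kb in ctrl, reached 11.1 in cKO-E, beside 11.3 for *Ano6* and 11.1 for *Ano10* in the same embryos.

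*Map3k20*, at a log2 fold change of 1.14, was set beside the other MAP3 kinases. Of 17 listed, 13 were tested, and their log2 fold changes in cKO-E ran up to 0.24 (*Map3k9*, adjusted p = 0.0516) with a median of 0.02. *Map3k4* was called lower in both mutants, by -0.60 (SE 0.06, edgeR adjusted p = 4.53e-06) in cKO-E and -0.58 (SE 0.06, adjusted p = 9.35e-07) in dKO-E. In a list of the p38 and JNK cascade below *Map3k20*, to which the stalled-ribosome partners *Eif2ak4* and *Gcn1* (*Gcn1l1* in the annotation) were added, none of 12 tested genes was called in cKO-E or dKO-E against ctrl by the quasi-likelihood test, the likelihood-ratio test or DESeq2, while in cKO-E the unadjusted p was under 0.05 for 2 higher and 1 lower. *Mapk10*, the neuronal JNK, was called lower in dKO-E when the mutants were compared, by -0.74 (SE 0.13, adjusted p = 0.000576). *Mapkapk3*, too low to be tested, stood at 1.74 ± 0.604 CPM (SD) in ctrl, 4.70 ± 2.23 in cKO-E and 0.848 ± 0.531 in dKO-E. Its cKO-E and ctrl embryos overlapped.

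The kinase that INKA2 inhibits, *Pak4*, was hardly read: it had at most 1 count in any library. As for *Sox2*, this is not read as absence of *Pak4* RNA, and its cause was not tested. *Inka1*, the paralogue of *Inka2*, had at most 6. Among the other PAK genes, *Pak3* was called lower in cKO-E by -0.65 (SE 0.06, edgeR adjusted p = 3.82e-06) and in dKO-E by -0.38 (SE 0.06, adjusted p = 0.000427), while dKO-E exceeded cKO-E by 0.28 (SE 0.08, adjusted p = 0.0191). *Pak6* and *Pak5*, which the annotation names *Pak7*, fell from cKO-E to dKO-E, by log2 changes of -1.51 (SE 0.31, adjusted p = 0.00225) and -0.61 (SE 0.08, adjusted p = 4.44e-05).

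Of the 9 tested genes of glutamate and D-amino acid metabolism, none was called in either mutant against ctrl by any of the 3 tests, with 3 higher at an unadjusted p under 0.05 in cKO-E. *Oplah*, whose enzyme opens the ring of oxoproline, had a log2 fold change of 0.05 (SE 0.20) in cKO-E. *Gad1* and *Gad2*, which make GABA from glutamate, fell from cKO-E to dKO-E, by log2 changes of -0.64 (SE 0.20, edgeR adjusted p = 0.0394) and -0.89 (SE 0.21, adjusted p = 0.00749). Both mark inhibitory neurons, and markers of the ganglionic eminence, where such neurons arise, are given beside them: they summed to 19.6 to 37.1 CPM in cKO-E, 4.11 to 30.0 in ctrl and 9.73 to 22.4 in dKO-E, and *Dlx1* and *Lhx6*, the 2 tested, were called lower in dKO-E against cKO-E. The other epoxide hydrolases were scarce, with at most 9 counts in any library for *Ephx2*, *Ephx3* and *Ephx4*. Of the NRF2 targets, a group to which *Ephx1* is often counted, *Hmox1* and *Slc7a11* fell from cKO-E to dKO-E, by log2 changes of -1.02 (SE 0.28, adjusted p = 0.0182) and -1.14 (SE 0.36, adjusted p = 0.0363). Of the whole list of 16 hydrolases and NRF2 targets, 7 were tested in cKO-E and none was called, with unadjusted p under 0.05 for 1 higher and 3 lower; the likelihood-ratio test called *Hmox1*, and DESeq2 called none.

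**Figure D4:**
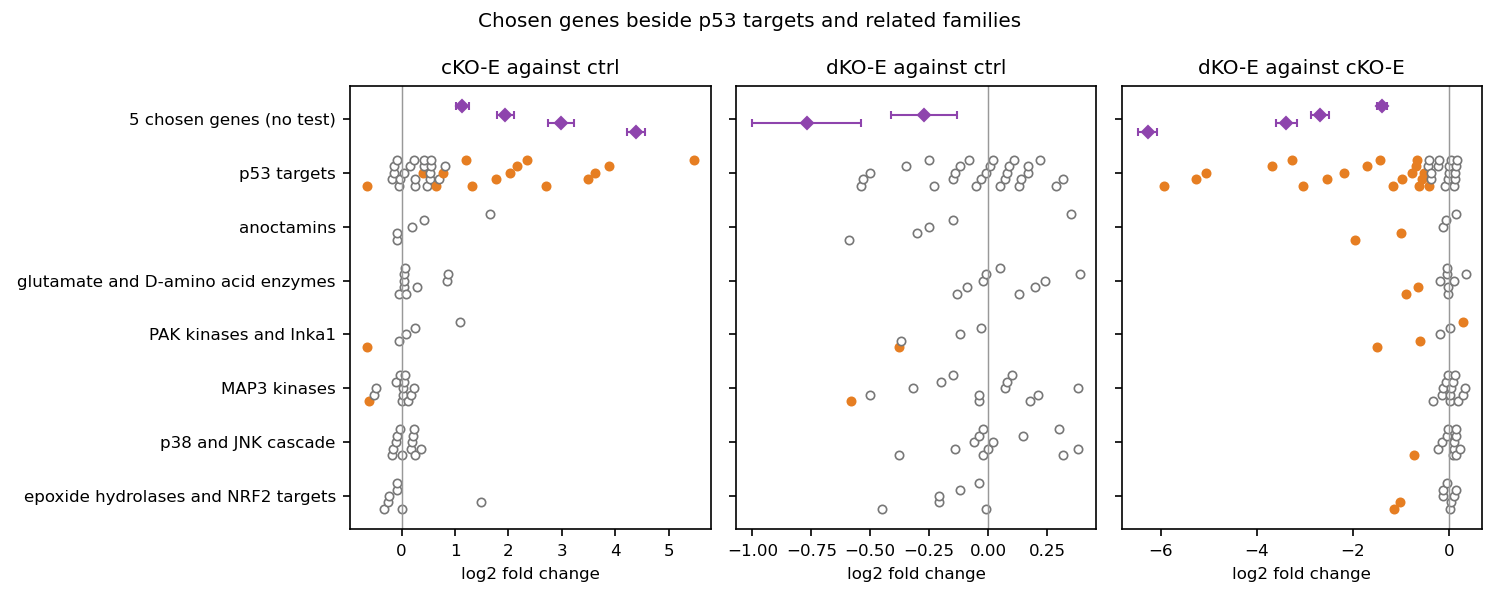
Log2 fold changes (horizontal axis, own scale per panel) of the chosen genes that passed the filter, with SE bars, and of each tested gene of the p53 target list and 6 related lists (rows), in 3 comparisons. Filled circles passed the threshold and open ones did not; in cKO-E against ctrl 14 p53 targets are filled above 0, while no gene of the 6 related lists is.

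Markers of microglia, which are outside the *Emx1* lineage, moved with the 5 genes: the 13 markers summed to 36.9 to 46.7 CPM in cKO-E, 8.78 to 20.1 in ctrl and 9.21 to 12.3 in dKO-E. Of 4 tested in cKO-E, 3 were called higher (*Csf1r*, *Mpeg1* and *Dock2*), and *Trem2* was at 0 counts in ctrl. *P2ry12*, which was not tested, was not higher in cKO-E: 1.28 ± 0.275 CPM (SD) against 1.85 ± 1.49 in ctrl and 0.722 ± 0.558 in dKO-E. The means of the other markers were higher in cKO-E than in ctrl. All 3 markers tested between the mutants were called lower in dKO-E. The sums for other cells overlapped between all groups: endothelial markers summed to between 41.1 and 93.4 CPM over all libraries and erythroid markers to between 5.95 and 22.3. Meningeal markers ran from 1.24 to 7.42 CPM in cKO-E, 2.84 to 65.4 in ctrl and 2.97 to 67.0 in dKO-E, and choroid plexus markers stayed at or below 6.48 CPM. The part of any of these cells in the levels of the 5 genes was not tested.

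*Ano3* lies 8.42 Mb from *Ino80* on chromosome 2 and *Map3k20* 46.9 Mb, and the part of alleles linked to floxed *Ino80* in their levels was not tested. The neighbours of *Ano3* and *Ephx1* were near 0, with at most 2 counts per library for *Muc15*, which overlaps *Ano3* on the other strand, and for *Slc5a12*, and at most 11 for *Tmem63a*, 1098 bases from *Ephx1*. The strand setting of the counting is not given in the sources used here, and without it reads of *Ano3* and *Muc15* in their overlap cannot be told apart. Beside *Inka2*, *Ddx20* had a log2 fold change of -0.35 (SE 0.12) and *Rap1a* of 0.06 (SE 0.06) in cKO-E. Beside *Dglucy*, *Rps6ka5* had 0.39 (SE 0.10) and *Ccdc88c* -0.05 (SE 0.07). Beside *Map3k20*, *Rapgef4* had 0.44 (SE 0.15) and *Cdca7* -0.37 (SE 0.13). None of these 6 genes passed the threshold in cKO-E. Between the mutants, *Rps6ka5* was called lower in dKO-E by -0.34 (SE 0.11, edgeR adjusted p = 0.0338), as was *Rapgef4* beside *Map3k20* by -0.70 (SE 0.20, adjusted p = 0.0193), while *Cdca7* on its other side was higher by 0.46 (SE 0.10, adjusted p = 0.00372).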

How the data were processed

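The authors deposited counts of unique molecules per gene for each library. Libraries were made from rRNA-depleted total RNA by Click-seq, in which random azido-nucleotide termination replaces fragmentation. The submitters' processing notes name bcl2fastq 2.17, cutadapt 1.13, STAR 2.5.2a, UMI-tools 0.5.3, HTSeq 0.6.1p1, edgeR 3.20.9 and build mm10; htseq-count ran in its intersection-nonempty mode, and its strand setting is not given in the sources used here. Rows for reads on no gene (4.96% to 12.5% of all counts in a table), ambiguous reads (1.78% to 2.07%) and reads placed more than once (14.9% to 20.9%) were left out. Of 51912 gene identifiers, 51633 matched GENCODE M21, which gave positions and exon lengths.

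Counts were fitted with edgeR 4.0.16 in R 4.3.3 (filterByExpr with a minimum count of 10, TMM, quasi-likelihood test, Benjamini-Hochberg adjustment over all genes tested), each pair of genotypes on its own. Mutants against ctrl were called at FDR 0.001, and the mutants against each other, sex and batch at 0.05. The likelihood-ratio test, DESeq2 1.42.0, other scalings, filters, covariates, blocks and left-out libraries were alternatives, and batch 2 alone was added after the data were seen. Scripts were tested on simulated data. Ratios of summed counts carry exact 95% intervals for counting error only. Correlations used log2 CPM with a prior count of 2.

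The 5 genes and all gene lists were chosen with earlier results of these data known. Other genes named are the 3 most correlated with each of the 5, their neighbours, called genes of the lists and the lowest or highest of a list, together with well-known targets or relatives chosen after their values were seen. Promoter sequences are RefSeq's on GRCm38.p6. Figures were drawn with matplotlib 3.10.9. How far transcripts share sequence with other genes is not reported here.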

Additional observations from a re-analysis of the deposited data

Results flagged for a closer look

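In 4 of the 15 sets of values looked at (5 genes in 3 groups), 1 embryo stood far from the rest of its group by Dixon's test, which by chance happens in about 1 of 20 sets. *Inka2* was at 18.5 CPM in cKO-E D, with the next embryo at 28.7. *Dglucy* was at 7.57 CPM in dKO-E G, from 7 counts, with the next at 3.23. *Map3k20* was at 54.3 CPM in ctrl F, with the next at 34.7, and at 37.9 CPM in dKO-E B, with the next at 28.4. Of the meningeal markers, *Col1a1*, *Col1a2*, *Col3a1*, *Lum* and *Foxc1* were also highest of their groups in ctrl F and dKO-E B. *Col3a1* stood at 36.0 CPM in ctrl F and 35.9 in dKO-E B, against group medians of 1.83 and 3.24. For *Dcn*, ctrl F was highest but dKO-E C exceeded dKO-E B. The part of meningeal cells in the *Map3k20* values was not tested. cKO-E D and dKO-E G are the 2 shallowest libraries, with 820915 and 885159 counts; the part of depth in these values was not tested.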

How the results depend on the processing

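The log2 fold changes of *Ano3*, *Dglucy*, *Inka2* and *Map3k20* kept their sign under every alternative that gave a value. In cKO-E against ctrl and between the mutants, the genes were chosen for these directions and the groups did not overlap. A kept sign there is therefore no test. With each library left out in turn, cKO-E against ctrl ran from 4.2 to 4.52 for *Ano3*, 2.81 to 3.1 for *Dglucy*, 1.88 to 2.04 for *Inka2* and 1.09 to 1.25 for *Map3k20*. For dKO-E against ctrl, *Inka2* ran from -0.96 to -0.66 and *Map3k20* from -0.37 (without dKO-E B) to -0.17 (without ctrl F), and *Map3k20* was -0.57 in batch 2 alone. A filter of 10 counts in every library removed *Ano3*, *Dglucy* and *Inka2* from at least 1 comparison, so they have no value there.

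Listed p53 targets called higher in cKO-E, 14 in the report, were 6 with at least 10 counts in every library, 1 in batch 2 alone, and 13 to 14 with a library left out. *Rprm*, the 1 called lower, was called by none (0) of total-count scaling, sex as a covariate, batch 1 alone, batch 2 alone, the litter block or the replicate block, and left-out libraries gave 0 to 1 (1 without ctrl D, ctrl H or cKO-E B, and 0 without any other). The 19 called lower in dKO-E against cKO-E became 8 with at least 10 counts in every library and 8 in batch 2 alone, and 19 to 21 with a library left out. In dKO-E against ctrl, 0 became 1 lower by the likelihood-ratio test and 1 by DESeq2.

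For the 6 related lists, 0 genes higher in cKO-E became 2 by the likelihood-ratio test, with all genes of at least 1 count or in 1 fit over all libraries, and 1 by DESeq2, with batch or sex as a covariate or with the replicate block (0 to 2 with a library left out, the 2 without cKO-E D). The 2 lower became 0 in batch 2 alone. In dKO-E against ctrl the 2 lower became 1 with total counts, batch as a covariate or batch 1 alone, and 0 in batch 2 alone or with the replicate block (1 to 2 with a library left out). Between the mutants, 1 higher became 3 with total counts, 2 with sex as a covariate, and 0 in batch 2 alone or with the replicate block (0 to 1 with a library left out), and 9 lower became 3 in batch 2 alone (7 to 10 with a library left out). The cause of these shifts was not tested.

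Over all genes, the 124 higher and 270 lower in cKO-E became 306 and 530 by the likelihood-ratio test, 71 and 127 with litter as a block, and 20 and 10 in batch 2 alone; in dKO-E against ctrl, 28 and 266 became 117 and 498 by the likelihood-ratio test, and the lowest counts were 1 higher with the replicate block and 12 lower in batch 2 alone. Between the mutants, 657 and 1106 became 25 and 280 in batch 2 alone, and 1079 higher with sex as a covariate. Without cKO-E C, the all-gene counts fell to 71 higher and 164 lower against ctrl, and to 346 higher between the mutants. The labels do not use the replicate letters to mark litters (letters A and B fall in 1 litter only between dKO-E and ctrl), and correlations of deviations between same-letter libraries ran from -0.36 to 0.14, so the replicate block is not a paired analysis. Depth limits *Ephx1* most, with at most 4 counts in any ctrl or dKO-E library.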
